A study of Mus musculus with 5 samples.

Results

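A set of genes of eicosanoid synthesis was followed through sorted mouse neutrophils: Ptgs1, Ptgs2, Ptgs2os2 and Ptges of the prostaglandin branch, and Alox5, Alox5ap, Lta4h and Ltc4s of the leukotriene branch. They are 8 of the 32285 genes in the deposited matrices and are named members of this pathway, chosen with earlier results of these data known. Eicosanoids are short-lived signalling lipids made from arachidonic acid that phospholipases free from membranes. Cyclooxygenases, encoded by Ptgs1 and Ptgs2, convert it to prostaglandin H2, from which terminal synthases make prostaglandin E2 and its relatives. The lipoxygenase encoded by Alox5, helped by the membrane protein encoded by Alox5ap, makes leukotriene A4 instead. Leukotriene A4 hydrolase (Lta4h) turns it into leukotriene B4, a strong neutrophil attractant, and leukotriene C4 synthase (Ltc4s) turns it into the first cysteinyl leukotriene.

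The cells were neutrophils sorted from bone marrow, blood and lung of female wild-type C57BL/6J mice, with 1 single-cell library from naive mice, 1 from mice bearing AT3 tumours and 1 from mice bearing AT3-gcsf tumours. AT3 is a mouse mammary carcinoma line, and AT3-gcsf carries the name of the neutrophil growth factor G-CSF. The labels give no construct for it, no age and no number of mice. In each library 3 hashtagged samples shared 1 lane, and no label says which tag marks which tissue, so the 9 tagged populations are called by library and tag (MHTO3, MHTO4 and MHTO5 in naive and in AT3-gcsf, MHTO7, MHTO8 and MHTO10 in AT3), and the same tag in naive and AT3-gcsf does not imply the same tissue.

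The libraries held 7738 to 10828 barcodes and 32089597 to 99703525 molecules counted as unique molecular identifiers (UMIs). Of these barcodes, 7376, 7615 and 10164 in naive, AT3 and AT3-gcsf carried 1 dominant tag and passed the cell filter, and the median depth of a population ran from 2267 to 9738 UMIs per cell. Between 20 and 44 barcode sequences were shared by a pair of libraries. All 8 neutrophil markers on the list, among them S100a8, S100a9 and Csf3r, were detected in each library, and together they took 116999 to 418794 CPM in the 9 populations. CPM are counts scaled to the same total of UMIs in every population (the usual counts-per-million unit). Brackets and intervals below are exact 95% intervals, Poisson for CPM and Clopper-Pearson for shares of cells, and cover counting error only. With 1 library per condition there was no test between conditions, and condition and lane cannot be told apart. The 2 comparisons with naive use the same naive library, and AT3 and AT3-gcsf each enter 2 comparisons.

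Positions are those of GENCODE vM21 on mm10. Ptgs2 lies at chr1:150100031-150108227 on the plus strand and overlaps no other annotated gene. Ptgs2os2 is a long non-coding RNA at chr1:150159043-150164948 on the minus strand. Its start is 64.9 kb from the start of Ptgs2 and the transcripts do not overlap, so its reads can be told apart from those of Ptgs2. Another RNA, Ptgs2os, starts 68 bp from the start of Ptgs2 on the opposite strand. Ptgs1 (chr2:36230426-36252272) is overlapped by Gm43621 on the opposite strand, and Ptges (chr2:30889471-30929863) contains the pseudogene Gm13400. Alox5 (chr6:116410077-116461178) and Lta4h (chr10:93453411-93484875) overlap no other gene. Alox5ap (chr5:149264767-149288153) and Ltc4s (chr11:50236461-50238616) are overlapped by antisense genes, Gm19719 and Gm26542, and Alox5ap also by the ribosomal RNA copy n-R5s180. The sources used here do not say whether counting used strand, so reads of a gene and its antisense partner may not have been told apart.

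The 250 bases before the start of Ptgs2 and of Ptgs2os2 are shown because both RNAs were high in the same populations. The RefSeq promoter table (GRCm38.p6) has an entry for 7 of the 8 genes; Alox5ap is not among them. Capitals mark a match to the palindrome TTGCGCAA, a binding motif of C/EBP factors. The windows are chr1:150099781-150100030, plus strand, and chr1:150164949-150165198, minus strand.
Ptgs2: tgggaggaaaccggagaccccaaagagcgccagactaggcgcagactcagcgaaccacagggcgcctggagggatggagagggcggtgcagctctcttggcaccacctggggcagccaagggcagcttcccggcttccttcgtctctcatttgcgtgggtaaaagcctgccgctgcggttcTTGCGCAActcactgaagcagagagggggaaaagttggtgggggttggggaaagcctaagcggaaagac
Ptgs2os2: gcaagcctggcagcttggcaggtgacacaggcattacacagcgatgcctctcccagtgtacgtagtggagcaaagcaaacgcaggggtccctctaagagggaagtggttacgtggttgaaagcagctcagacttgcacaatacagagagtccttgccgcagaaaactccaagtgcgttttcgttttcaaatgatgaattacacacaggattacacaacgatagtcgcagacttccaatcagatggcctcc
The match in the Ptgs2 window ran from base -69 to base -62 before the start. Both strands of 32851 promoter windows of this length were searched, and 54 of them (0.164%) held TTGCGCAA. Other motifs searched in the same way had no match in the 2 printed windows: TGACGT (a cyclic AMP response element core, in 6.47% of all windows), CACGTG (an E-box, 6.02%), a kappaB consensus (1.41%) and TATAAA (a core promoter element, 12.4%). The RefSeq window of Ptgs2os, on the opposite strand, is chr1:150099875-150100124 and so reaches past the start of Ptgs2. It holds the same TTGCGCAA match, at -95 to -88 from its own start, and also CACGTG at -178 to -173 and TGACGT at -174 to -169. These 2 overlap each other and lie just past the annotated start of Ptgs2, where the printed Ptgs2 window ends. The search of the printed window therefore does not show that Ptgs2 lacks them. TTGCGCAA was not found in the Ptgs2os2 window or in the windows of the other 5 genes with an entry. Binding of factors was not analysed here.

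Ptgs2, the inducible cyclooxygenase, was high in 1 population of each library. In naive it was at 864 CPM in MHTO5 (845 to 884), 51.4 in MHTO3 and 7.57 in MHTO4. Among AT3 populations it was at 625 CPM in MHTO8 (615 to 636), 17.3 in MHTO10 and 5.80 in MHTO7. In AT3-gcsf it was at 139 CPM in MHTO5 (135 to 143) and at 1.38 in both MHTO3 and MHTO4. The intervals separated all neighbours in the order of the 9 levels except naive MHTO4 from AT3 MHTO7 and the lowest pair, both in AT3-gcsf.

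**Figure D1:**
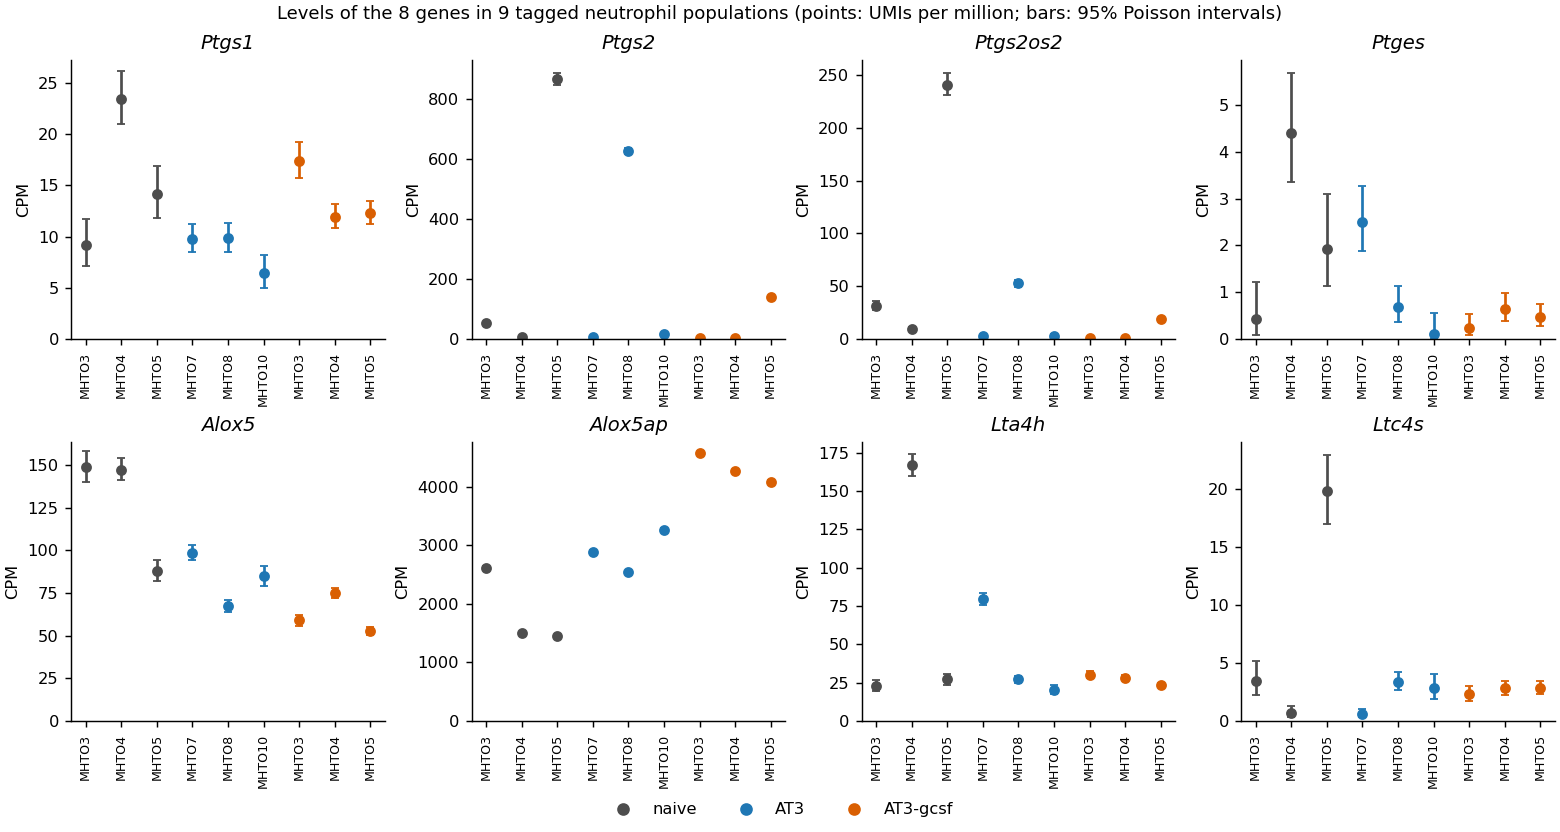
Level of each of the 8 genes (vertical axes, CPM, each panel on its own scale from 0) in the 9 tagged populations (horizontal axis), coloured by library; points are CPM and bars are exact 95% Poisson intervals. Ptgs2 stands high in naive MHTO5 (864 CPM), AT3 MHTO8 (625) and AT3-gcsf MHTO5 (139), while all 3 AT3-gcsf populations stand highest for Alox5ap and the 2 highest values of Lta4h are naive MHTO4 (167) and AT3 MHTO7 (79.5).

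At least 1 Ptgs2 UMI was found in 74.2% of naive MHTO5 cells (72.4 to 76.0), 76.3% of AT3 MHTO8 cells (74.7 to 77.8) and 46.7% of AT3-gcsf MHTO5 cells (45 to 48.3), at median depths of 2809, 4968 and 8627 UMIs per cell. When each cell was thinned to 1500 UMIs, leaving out 117, 46 and 26 shallower cells, the shares were 61.5%, 52.6% and 19.5%, whose intervals do not overlap (59.5 to 63.5, 50.8 to 54.4 and 18.2 to 20.8). At equal depth the order of the shares is thus naive, AT3, AT3-gcsf, as it is for CPM scaled by totals. With the other scaling tried, TMM (below), the highest Ptgs2 levels were 613 CPM in naive, 669.6 in AT3 and 183 in AT3-gcsf. The order of naive and AT3 thus turned with the scaling, and thinning to a fixed total cannot settle it. The other 6 populations had a Ptgs2 UMI in 1.05% to 7.90% of cells.

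Free RNA sets a floor under such shares. Barcodes with at least 3 UMIs of B, T or natural killer cell markers and under 5% of UMIs in S100a8 and S100a9, called lymphoid-like, had a Ptgs2 UMI in 11% of 91 barcodes in naive, 16.0% of 25 in AT3 and 4.76% of 21 in AT3-gcsf, at median depths of 5493, 6475 and 27500 UMIs. In CPM these barcodes were at 21.3 (12.8 to 33.2), 21.4 (9.78 to 40.6) and 1.70 (0.0430 to 9.46), the last from 1 UMI. The shares of the other 6 populations lay below those of their own library's lymphoid-like barcodes and are not read as expression, nor is an order read from them. These barcodes do not measure free RNA alone. By the same rule with endothelial markers, 8 of 91, 7 of 25 and 10 of 21 were also endothelial-like. Endothelial-like barcodes were at 22.2, 248 and 13.1 CPM of Ptgs2 in naive, AT3 and AT3-gcsf. In AT3, 24 of the 25 lymphoid-like barcodes carried MHTO8. The floor may thus be set too high. The lymphoid-like barcodes were deeper than the cells of most of these populations, and single cells stood out in 2 of them: the highest cell held 12 UMIs in naive MHTO3, which was above the lymphoid-like barcodes in CPM, and 8 in AT3 MHTO10, where 0.629% of cells held 2 or more. The 3 high populations lay above the lymphoid-like barcodes in both measures.

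Within naive MHTO5 and AT3 MHTO8 Ptgs2 was spread over many cells, and less so within AT3-gcsf MHTO5. In naive MHTO5 the median cell held 2 UMIs, 25.7% of cells held 5 or more, and the top 10% of cells held 37.4% of the UMIs. In AT3 MHTO8 the median cell held 3 UMIs, 33.7% held 5 or more and the highest cell held 107. In AT3-gcsf MHTO5 the median was 0, 8.68% held 5 or more and the top 10% of cells held 51.8% of the UMIs.

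**Figure D2:**
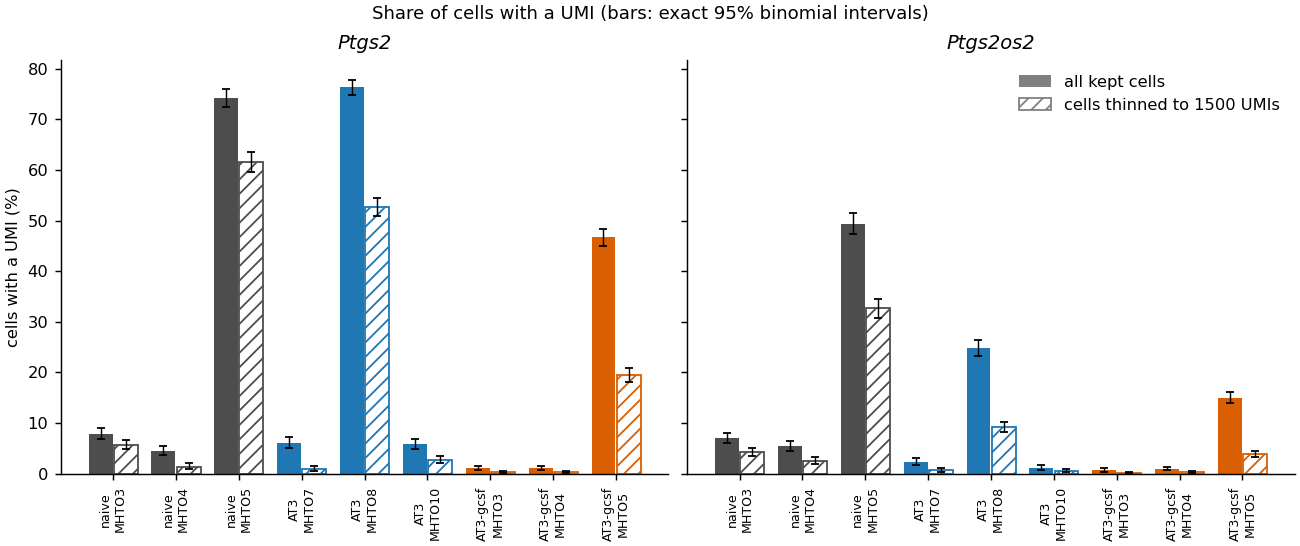
Share of cells with at least 1 UMI (vertical axis, percent) of Ptgs2 (left) and Ptgs2os2 (right) in the 9 populations; filled bars are all kept cells, hatched bars are cells thinned to 1500 UMIs, and error bars are exact 95% binomial intervals. For Ptgs2 the filled bars of naive MHTO5 (74.2%) and AT3 MHTO8 (76.3%) are of like height, and the hatched bars step down from 61.5% through 52.6% to 19.5% in AT3-gcsf MHTO5.

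The 3 populations high in Ptgs2 were also those with the highest summed levels of epithelial markers (10783, 7149.6 and 2259.7 CPM, against 23.7 to 734 elsewhere) and endothelial markers (221, 179 and 69.1 CPM, against 0.689 to 4.56). All 6 epithelial and all 3 endothelial markers were detected in each library. The summed level of 8 immediate-early genes, among them Fos and Egr1, was 9377, 8471 and 5022 CPM in the 3 populations and 510.1 to 5023 elsewhere, with naive MHTO3 at 5023. Without cells that held 3 or more UMIs of other-type markers, a set of markers that leaves out Scgb1a1, Sftpc and Csf1r, the Ptgs2 level of naive MHTO5 was 1061 CPM, that of AT3 MHTO8 665 and that of AT3-gcsf MHTO5 142, in each case no lower than with them. The secretory epithelial gene Scgb1a1 was found in similar shares of thinned cells with and without a Ptgs2 UMI: 23.4% and 23.1% for naive MHTO5, 16.5% and 15.0% for AT3 MHTO8, 3.47% and 4.51% for AT3-gcsf MHTO5. The part of the immediate-early genes in the Ptgs2 levels was not tested.

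Ptgs2os2 followed Ptgs2 across populations but not in proportion. In naive it was at 241 CPM in MHTO5 (231 to 252), 31.3 in MHTO3 and 9.63 in MHTO4. Among AT3 populations it was at 52.6 CPM in MHTO8 (49.5 to 55.8), 2.94 in MHTO10 and 2.41 in MHTO7. In AT3-gcsf it was at 18.8 CPM in MHTO5 (17.4 to 20.2), 1.16 in MHTO4 and 0.965 in MHTO3. All 3 naive populations lay above the low populations of AT3 and AT3-gcsf, whose shares of positive cells were 0.698% to 2.32%. Pearson's r of Ptgs2 and Ptgs2os2 over the 9 populations was 0.927, a description of populations that share lanes in groups of 3.

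The ratio of the 2 RNAs differed between libraries. There were 3.58 Ptgs2 UMIs per Ptgs2os2 UMI in naive MHTO5 (7600 against 2122 UMIs), 11.9 in AT3 MHTO8 (12989 against 1092) and 7.42 in AT3-gcsf MHTO5 (5093 against 686). Naive MHTO5 and AT3 MHTO8 were thus much closer in Ptgs2 (864 and 625 CPM) than in Ptgs2os2 (241 and 52.6 CPM). The other naive populations had 0.786 and 1.64 Ptgs2 UMIs per Ptgs2os2 UMI, so the ratio also differed within a library.

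In single cells Ptgs2os2 was found more often where Ptgs2 was found. Among cells thinned to 1500 UMIs, Ptgs2os2 was detected in 35.9% of Ptgs2-positive cells of naive MHTO5 (33.4 to 38.5) and 27.6% of its Ptgs2-negative cells (24.6 to 30.6). In AT3 MHTO8 the shares were 12.4% (10.8 to 14.1) and 5.76% (4.61 to 7.09), and in AT3-gcsf MHTO5 7.49% (5.68 to 9.66) and 2.96% (2.38 to 3.63). The intervals do not overlap in any of the 3 populations. Other genes split this way too. Alox5ap was found in 90.4% (88.7 to 91.9) and 85.1% (82.5 to 87.4) in naive MHTO5, while its intervals overlapped in the other 2. Cebpb was in 99.6% and 93.6% in naive MHTO5 and 99.6% and 95.8% in AT3 MHTO8, with intervals apart. Ptgs2-negative cells there also held Cdh5 more often (below). The part of barcodes of other cell types in these gaps was not tested. Among lymphoid-like barcodes 2.2% of 91 held Ptgs2os2 in naive, and 0 of 25 and 0 of 21 in AT3 and AT3-gcsf, which allows shares of up to 13.7% and 16.1%. Over all cells of the high populations, Ptgs2os2 was found in 49.4%, 24.8% and 15.0% (32.7%, 9.24% and 3.84% after thinning). In CPM the lymphoid-like barcodes were at 2.24 (0.271 to 8.09), 0 and 0, with upper limits of 8.77 and 6.26 for AT3 and AT3-gcsf, below the levels of the high populations. Ptgs2os, the RNA that starts beside Ptgs2, was scarce (11.7, 6.21 and 1.61 CPM in the 3 high populations and at most 0.974 elsewhere) and high in the same populations.

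**Figure D3:**
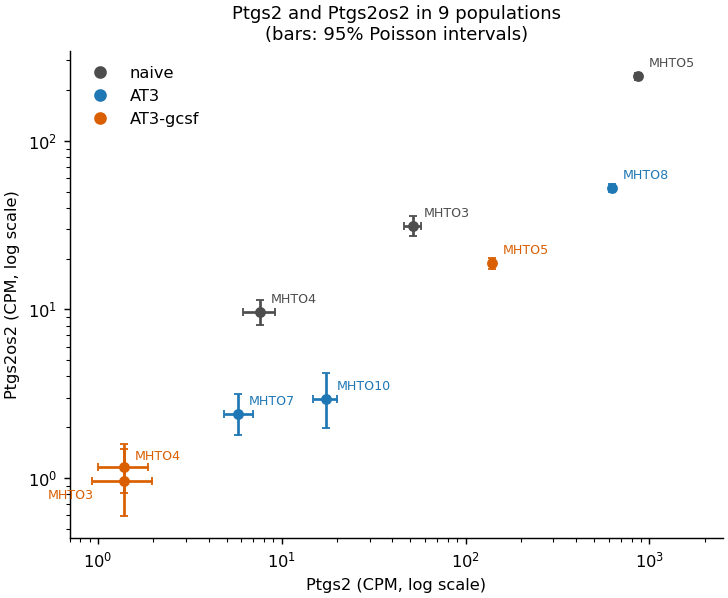
Ptgs2 (horizontal axis, CPM, log scale) against Ptgs2os2 (vertical axis, CPM, log scale) in the 9 populations, labelled by tag and coloured by library; bars are exact 95% Poisson intervals. The populations high in one RNA are high in the other, and the naive points lie higher in Ptgs2os2 for their Ptgs2 than the AT3 points: MHTO5 of naive has 3.58 Ptgs2 UMIs per Ptgs2os2 UMI and MHTO8 of AT3 has 11.9.

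The genes most like Ptgs2 over the 9 populations, among 5286 genes at 20 CPM or more in some population, were Nfkbid (Pearson's r of log2 CPM plus 5, 0.995), Nfkbiz (0.991), Nr4a1 (0.990), Slc25a33 (0.989) and Ndel1 (0.989). Nfkbid and Nfkbiz encode nuclear inhibitor-of-kappaB proteins and Nr4a1 an orphan nuclear receptor. Nfkbiz was at 1125 CPM in naive MHTO5, 584 in AT3 MHTO8, 301 in AT3-gcsf MHTO5 and 15.6 to 124 elsewhere. Cebpb, which encodes the C/EBP factor known to act on Ptgs2, was at 8234, 7635 and 7084 CPM in the same 3 populations and at 338 to 1437 elsewhere. Ptgs2 was at 864, 625 and 139 CPM in these 3 populations. All these levels are scaled by totals. With TMM (below) those of Ptgs2 were 613, 669.6 and 183 CPM, so no order shared with Cebpb is read. The part of Cebpb in the Ptgs2 levels was not tested.

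Ptgs1, the constitutive cyclooxygenase, was low in all populations and reached the minimum of 20 CPM for comparison in naive MHTO4 alone. In naive it was at 23.5 CPM in MHTO4 (21.0 to 26.2), 14.2 in MHTO5 and 9.19 in MHTO3. Levels in AT3 were 9.82, 9.77 and 6.47 CPM in MHTO8, MHTO7 and MHTO10. In AT3-gcsf it was at 17.4, 12.3 and 11.9 CPM in MHTO3, MHTO5 and MHTO4. The intervals separate naive MHTO4 from the next level, AT3-gcsf MHTO3, and overlap for every later pair of neighbours.

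Some Ptgs1 UMIs sat in barcodes of other cell types. Endothelial-like barcodes, defined like the lymphoid-like ones but with endothelial markers, numbered 41 in AT3, all in MHTO8, and held 35.3% of that population's Ptgs1 UMIs at 94.1 CPM. Without cells with other-type markers Ptgs1 was at 4.84 CPM in place of 9.82 in AT3 MHTO8, at 8.38 in place of 14.2 in naive MHTO5, and at 23.8 in naive MHTO4. A Ptgs1 UMI was found in 12.1% of naive MHTO4 cells and in 6.59% of naive lymphoid-like barcodes, at median depths of 5400 and 5493 UMIs. The lymphoid-like barcodes were at 12.3, 33.3 and 88.3 CPM of Ptgs1 in naive, AT3 and AT3-gcsf, against 17.3, 9.15 and 13.4 in the whole libraries. The classes share barcodes: 8 of 91, 7 of 25 and 10 of 21 lymphoid-like barcodes were also endothelial-like. They give no background level for this gene.

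Ptges, the inducible synthase of prostaglandin E2, had 80 UMIs in naive (2.70 CPM), 68 in AT3 (1.30) and 42 in AT3-gcsf (0.466), and it reached the minimum for comparison in no population. The highest levels were 4.41 CPM in naive MHTO4 and 2.50 in AT3 MHTO7, the lowest 0.0981 in AT3 MHTO10 with 1 UMI. A UMI was found in 0.935%, 0.788% and 0.384% of cells. Lymphoid-like barcodes held 1, 1 and 3 UMIs (1.12, 2.38 and 5.09 CPM), with intervals from 0.0283 to 6.24, 0.0602 to 13.2 and 1.05 to 14.9, too wide to set a floor. Granule-rich cells, defined below, were at 5.37 CPM in naive (4.07 to 6.96) and other cells at 1.21 (0.768 to 1.82). In AT3 the levels were 2.51 (1.89 to 3.26) and 0.402 (0.208 to 0.703), again with intervals apart, and in AT3-gcsf 0.596 (0.374 to 0.903) and 0.375 (0.229 to 0.580), which overlap. The 3 populations high in Ptgs2 had 1.93, 0.674 and 0.465 CPM of Ptges. Ptges3, another synthase of prostaglandin E2 and a chaperone partner, was at 98.6, 47.1 and 32.5 CPM in them.

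Alox5, the lipoxygenase that opens the leukotriene branch, was lower in every AT3-gcsf population than in every naive population when scaled by totals, a separation that was lost with the other scaling tried, TMM (below). In naive it was at 149 CPM in MHTO3, 147 in MHTO4 and 87.9 in MHTO5. Levels in AT3 were 98.7, 84.9 and 67.3 CPM in MHTO7, MHTO10 and MHTO8. In AT3-gcsf it was at 74.8, 59.0 and 52.8 CPM in MHTO4, MHTO3 and MHTO5. AT3 and naive overlap, because AT3 MHTO7 lay above naive MHTO5, and the intervals of naive MHTO5 and AT3 MHTO10 overlap. The population high in Ptgs2 was the lowest of its library for Alox5 in all 3 libraries.

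The share of cells with an Alox5 UMI did not show the order seen with totals, as depth differed. Unthinned it was 35.6%, 36.9% and 38.4% in naive, AT3 and AT3-gcsf. Thinned to 1500 UMIs it was 18.0% (17.1 to 18.9), 11.9% (11.1 to 12.6) and 9.56% (8.99 to 10.2). Thinning also scales to a fixed total, so the thinned shares do not test that order. With TMM the log2 ratios between libraries were -0.04, -0.16 and -0.12 (below). Among lymphoid-like barcodes 14.3% held a UMI in naive, 0 of 25 in AT3 (which allows up to 13.7%) and 9.52% in AT3-gcsf.

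Alox5ap, which presents arachidonic acid to the lipoxygenase, was higher in every AT3-gcsf population than in every population of the other libraries. In naive it was at 2605 CPM in MHTO3, 1496 in MHTO4 and 1442 in MHTO5. Levels in AT3 were 3257, 2887 and 2539.8 CPM in MHTO10, MHTO7 and MHTO8. In AT3-gcsf it was at 4568, 4267 and 4084 CPM in MHTO3, MHTO4 and MHTO5. The intervals separate all 9 levels. AT3 and naive overlap in 1 of 9 pairs, since naive MHTO3 lay above AT3 MHTO8.

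Nearly every cell held Alox5ap, so its level and not its share carried the difference. A UMI was found in 94.8% to 99.8% of the cells of each population, and in 88.3% to 99.3% after thinning. The median cell held 5 to 9 UMIs in naive, 10 to 30 in AT3 and 28 to 34 in AT3-gcsf, at the different depths of the libraries. Lymphoid-like barcodes were at 195, 190.1 and 295 CPM, with a UMI in 34.1%, 84.0% and 85.7% of them at the depths given above. Macrophage-like barcodes were at 707, 504 and 953 CPM. The genes most like Alox5ap over the populations were Vrk3 (r 0.978), Hp (0.978), Cstdc4 (0.977), Tm2d2 (0.970) and Hmox1 (0.970). Hp encodes haptoglobin and Hmox1 haem oxygenase.

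Lta4h, the hydrolase that makes leukotriene B4, was high in 1 population of naive and 1 of AT3, and these were not the populations high in Ptgs2. In naive it was at 167 CPM in MHTO4 (160.0 to 174), 27.1 in MHTO5 and 23.0 in MHTO3. Among AT3 populations it was at 79.5 CPM in MHTO7 (75.8 to 83.4), 27.3 in MHTO8 and 20.4 in MHTO10. In AT3-gcsf it was at 30.2, 28.3 and 23.5 CPM in MHTO3, MHTO4 and MHTO5. The lower 7 levels form a chain in which every neighbour's interval overlaps the next.

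The 2 populations high in Lta4h were those with the most secondary granule transcripts, which immature neutrophils of the marrow carry. Ltf, Camp, Ngp and Lcn2 together took 60386 CPM in naive MHTO4 and 48598 in AT3 MHTO7, against 2521 to 15565 elsewhere. Cells with at least 1% of UMIs in these 4 genes, called granule-rich, were 59.2% of naive MHTO4, 54.4% of AT3 MHTO7 and 1.04% to 27.3% of the other populations. Lta4h was at 206 CPM in granule-rich cells of naive (197 to 215) and 25.6 in its other cells (23.4 to 28.0). The AT3 levels were 88.8 (84.9 to 92.8) and 16.0 (14.6 to 17.5), and in AT3-gcsf at 33.3 (31.4 to 35.2) and 22.3 (21.1 to 23.6). In all 9 populations granule-rich cells were higher than the others with intervals apart: the 355 granule-rich cells of AT3 MHTO8 were at 59.3 CPM (52.7 to 66.4) and its other cells at 17.0 (15.1 to 19.2), and the smallest gap was in AT3-gcsf MHTO4, with 32.5 (29.7 to 35.6) and 24.7 (22.4 to 27.1).

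The granule-rich class is a range of a score and not a cell type. Between 10.2% and 47.2% of the cells of a library had a granule share of 0.5% to 2%, close to the limit, the most in AT3-gcsf. The class also differed in makeup: Camp was at 25966, 11788 and 1312 CPM in granule-rich cells of naive, AT3 and AT3-gcsf, and Lcn2 at 14384, 17540.4 and 14579. With Lcn2 left out of the score, a choice made after seeing the data, 1111, 916 and 494 cells were granule-rich and their Lta4h levels were 226 CPM (216 to 236), 121 (115 to 126) and 56.3 (51.8 to 61.0). The other cells were then at 25.4, 16.1 and 22.9 CPM. The order naive, AT3, AT3-gcsf was the same under both definitions.

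**Figure D4:**
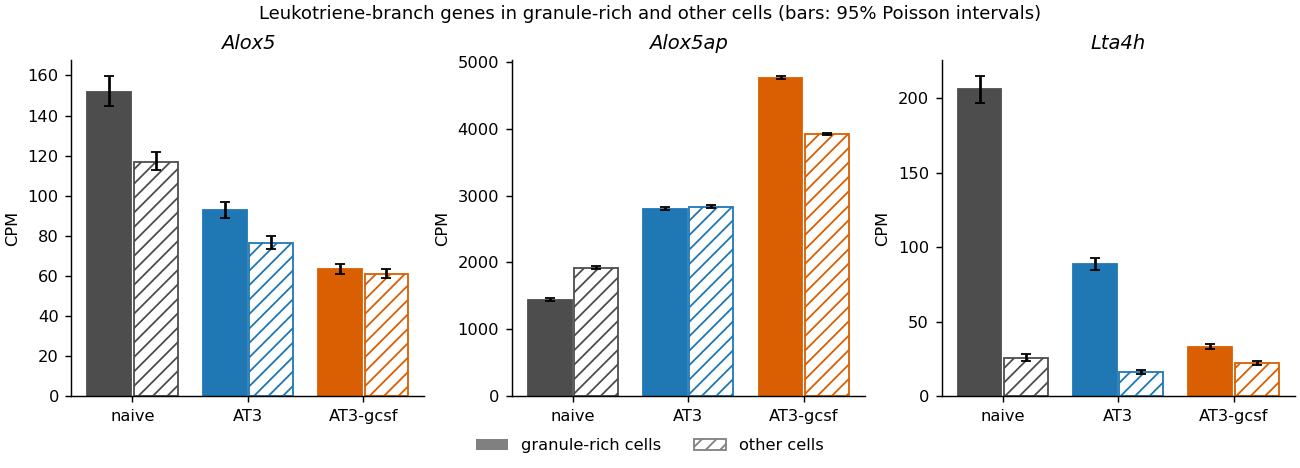
Level (vertical axes, CPM from 0) of Alox5, Alox5ap and Lta4h in granule-rich cells (filled) and other cells (hatched) in each of the 3 libraries; bars with exact 95% Poisson intervals. Levels are scaled by totals and not by TMM. Lta4h differs most between the classes in naive (206 against 25.6). On this scale Alox5 steps down over the libraries in both classes (152 to 63.4 and 117 to 61.1). Alox5ap steps up in both (1439.9 to 4766 and 1922 to 3918).

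Scaled by totals, Alox5 and Alox5ap kept their order over the libraries inside both classes of cells. The classes were not compared with TMM, with which the library ratios of Alox5 were -0.04, -0.16 and -0.12 (below). Alox5 was at 152, 92.9 and 63.4 CPM in granule-rich cells of naive, AT3 and AT3-gcsf, and at 117, 76.5 and 61.1 in other cells. Alox5ap was at 1439.9, 2801 and 4766 CPM in granule-rich cells and at 1922, 2836 and 3918 in other cells. Granule-rich cells were deeper, with medians of 7535, 13548 and 13250 UMIs against 2577, 4054 and 6278. Lta4h was also found in other cell types: lymphoid-like barcodes were at 90.7, 80.8 and 104 CPM, above cells that were not granule-rich, so they give no background level for this gene. Among the genes most like Lta4h over the populations were Lims1 (r 0.989), Aoah (0.986), Chil3 (0.978) and Cybb (0.975). Aoah encodes acyloxyacyl hydrolase, which inactivates lipopolysaccharide, and Cybb the catalytic subunit of the NADPH oxidase.

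Ltc4s, which encodes leukotriene C4 synthase, had few UMIs in neutrophils. It was at 19.8 CPM in naive MHTO5 (17.0 to 22.9), 3.48 in MHTO3 and 0.661 in MHTO4. Levels in AT3 were 3.37, 2.84 and 0.614 CPM in MHTO8, MHTO10 and MHTO7, and in AT3-gcsf at 2.30 to 2.84 CPM. Naive MHTO5 is apart from all others by its interval. Macrophage-like barcodes, 41 in naive MHTO5 and 59 in all of naive, held 149 of the 174 Ltc4s UMIs of that population (85.6%), and 71.6% of those of the library. In AT3 MHTO8, 22 such barcodes held 34 of 70 Ltc4s UMIs (48.6%). Without cells with other-type markers naive MHTO5 was at 3.38 CPM and AT3 MHTO8 at 1.60. In AT3-gcsf macrophage-like barcodes held 3.69% of the Ltc4s UMIs, and a UMI was found in 1.78% of cells against 0 of 21 lymphoid-like barcodes, which allows up to 16.1%.

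Within libraries, 5 of the genes reached 20 CPM in some population of AT3, 4 in AT3-gcsf and 6 in naive. A gene was counted as high in a population when it was at least 2-fold above both others after adding 5 CPM to each level. Lta4h was so in naive MHTO4 and AT3 MHTO7, Ptgs2 and Ptgs2os2 in naive MHTO5 and AT3 MHTO8, and Ptgs2 in AT3-gcsf MHTO5. Of all genes tested, 3.45%, 1.99%, 13.2%, 9.05% and 5.94% were high in these populations, in the same order. Ptgs2 and Ptgs2os2 were at least 2-fold below both others in naive MHTO4, as 8.70% of genes were. Ptgs2 was so in AT3 MHTO7, as 7.20% were. For Ptgs2 these calls set apart populations whose shares lay below those of lymphoid-like barcodes (above), so no order is read from them. The count of 7 high pairs of a gene and a population was the same with 1 CPM added in place of 5.

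Between whole libraries the genes were compared by the log2 ratio of CPM plus 5, so that ratios of low genes are understated, and counted as different from 1 in size (2-fold). In each comparison 5 of the 8 reached 20 CPM in the higher library: Ptgs2, Ptgs2os2, Alox5, Alox5ap and Lta4h. AT3 against naive had 1 of the 5 lower and none higher, where 8.19% of all 4236 genes tested were 2-fold apart (1.72% higher and 6.47% lower). AT3-gcsf against naive had 4 lower and 1 higher, where 25.4% of 4342 genes were apart (4.10% higher and 21.3% lower). AT3-gcsf against AT3 had 2 lower and none higher, where 5.29% of 3669 genes were apart (1.88% higher and 3.41% lower). The median ratio of the 5 was -0.61, -1.58 and -0.71, beside medians of -0.38, -0.44 and -0.04 over all genes tested.

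The scale of these ratios depends on the library totals. With TMM factors from edgeR in place of totals, the medians of all genes were 0.19, 0.46 and 0.24, shifts of 0.57, 0.90 and 0.29, and the counts of higher and lower genes were 194 and 43, 747 and 181, and 134 and 68, in place of 73 and 274, 178 and 927, and 69 and 125. Ratios are therefore also given less the median of all genes. A TMM factor is 1 number per library, so taking off the median removes it by construction. Only the added 5 CPM and the minimum leave a difference, so likeness of these values under both scalings is no test of them. For these 5 genes the widest change was in Ptgs2os2, from -2.31 to -2.49 in AT3-gcsf against naive.

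Ptgs2 was at 273, 255 and 57.3 CPM in naive, AT3 and AT3-gcsf. AT3 differed from naive by -0.10, and by 0.48 with TMM, so that the sign turns with the scaling; less the median it was 0.28. AT3-gcsf differed from naive by -2.16 (less the median -1.72) and from AT3 by -2.06 (-2.02). Leaving out the high population of a library turned or widened them: without naive MHTO5 AT3-gcsf stood 1.17 above naive, without AT3 MHTO8 it stood 2.10 above AT3, and without AT3-gcsf MHTO5 the ratios were -5.44 and -5.35. For AT3 against naive, leaving out a population gave from -4.26 (without AT3 MHTO8) to 3.23 (without naive MHTO5). Set population by population, AT3-gcsf MHTO5 was below both other high populations.

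Ptgs2os2 was at 83.8, 22.5 and 8.25 CPM. AT3 differed from naive by -1.69 (less the median -1.31), AT3-gcsf from naive by -2.74 (-2.31) and AT3-gcsf from AT3 by -1.05 (-1.01). Without naive MHTO5 the first 2 were 0.31 and -0.74, and without AT3 MHTO8 the last was 0.81. With TMM the last was -0.87, under 2-fold.

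Alox5 was at 129.9, 83.5 and 62.1 CPM, with ratios of -0.61, -1.01 and -0.40 and, less the median, -0.23, -0.57 and -0.36. Naive exceeded AT3-gcsf in all 9 pairs of populations, which 33.3% of the genes tested did. With each library's TMM factor applied to its populations, naive exceeded AT3-gcsf in 6 of 9 pairs, as naive MHTO5 then lay at 62.3 CPM and the AT3-gcsf populations at 69.5 to 98.5. With TMM the ratios were -0.04, -0.16 and -0.12, so that AT3-gcsf and naive were no longer 2-fold apart while the sign was the same; 10 of 19 alternatives kept that call. Alox5ap was at 1749, 2821 and 4265 CPM, with ratios of 0.69, 1.28 and 0.60 and, less the median, 1.07, 1.72 and 0.64. AT3-gcsf exceeded naive in all 9 pairs, as 7.65% of the genes tested did, and AT3 in all 9, as 11.0% did, and both also with TMM. Leaving out any 1 population moved the 3 ratios within 0.52 to 0.93, 1.12 to 1.53 and 0.50 to 0.65. They were 1.28, 2.17 and 0.89 with TMM, and 0.48, 0.95 and 0.47 with cells thinned to 1500 UMIs, which weights cells equally and puts the second under 2-fold.

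Lta4h was at 90.3, 47.2 and 26.8 CPM, with ratios of -0.87, -1.58 and -0.71 and, less the median, -0.49, -1.15 and -0.67. AT3-gcsf was higher than naive in 5 of 9 pairs of populations and lower in 4. Naive MHTO4 and AT3 MHTO7 carried them: without naive MHTO4 the first 2 were 0.79 and 0.07, and without AT3 MHTO7 the last was 0.08. Without granule-rich cells AT3-gcsf differed from naive by -0.16 and from AT3 by 0.38. Among granule-rich cells alone the levels stepped down from 206 through 88.8 to 33.3 CPM, as given above.

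**Figure D5:**
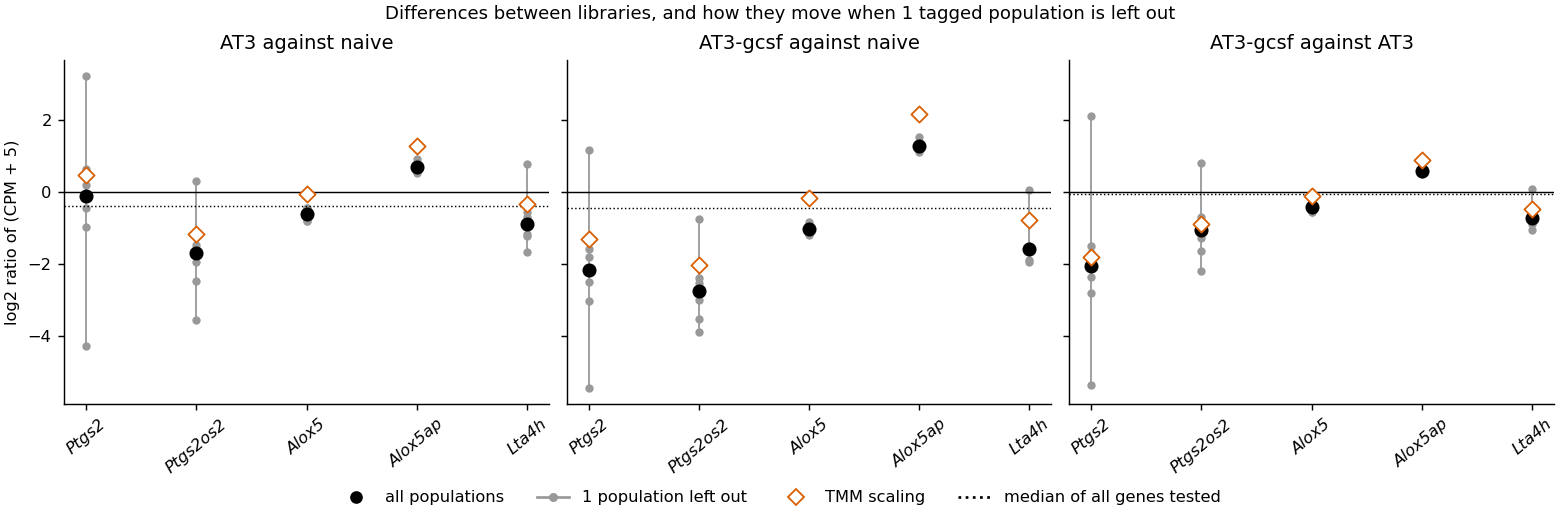
Log2 ratio of CPM plus 5 (vertical axis) for the 5 genes that reached the minimum, in the 3 comparisons; black points use all populations, grey points leave out 1 population, open diamonds use TMM scaling, and the dotted line is the median of all genes tested. Alox5 and Alox5ap move little when a population is left out, while Ptgs2 spans from -5.44 to 1.17 in AT3-gcsf against naive.

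Other genes of the pathway, 54 on the list used, were mostly below the minimum: 11, 13 and 13 of them were tested in the 3 comparisons. AT3 against naive had 1 higher and 1 lower, AT3-gcsf against naive 3 higher and 2 lower, and AT3-gcsf against AT3 2 higher and 1 lower. The higher ones were Ggt1, Dpep2 and Ltb4r1, the lower ones Acsl1 and Hpgd. The median ratio of the tested genes was 0.03, 0.00 and -0.02. Ggt1, a gamma-glutamyl transferase that converts leukotriene C4 to D4, was at 3.35, 60.6 and 188 CPM in naive, AT3 and AT3-gcsf, and every population of AT3-gcsf (183 to 196) lay above every one of AT3, from 43.9 upward, and all of these above naive (0.910 to 5.44). Dpep2, a dipeptidase that converts leukotriene D4 to E4, was at 1.18, 2.40 and 21.8 CPM, and 21.1 to 23.6 in the AT3-gcsf populations. Ltb4r1, the high-affinity receptor of leukotriene B4, was at 187, 257 and 391 CPM, with ratios of 0.45, 1.05 and 0.60, and of 1.03, 1.92 and 0.89 with TMM. Mgst1, a microsomal glutathione transferase, was at 492, 452 and 375 CPM and Cotl1, a binding partner of the lipoxygenase, at 604, 621 and 649; neither was 2-fold apart.

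Among lower genes, Acsl1, an acyl-CoA synthetase, was at 122, 42.1 and 28.6 CPM. Scaled by totals, all AT3 and AT3-gcsf populations lay below all naive ones. For AT3-gcsf, 33.3% of the genes tested did so. Populations were not compared with TMM for Acsl1. Its ratios to naive were -1.43 and -1.92, and -0.87 and -1.10 with TMM, the first of these under 2-fold. Mboat7, which returns arachidonic acid to phospholipids, was at 87.6, 95.7 and 87.8 CPM. Tbxas1, the thromboxane synthase, was below the minimum in every library sum, at 14.3 to 20.6 CPM in naive populations and 1.10 to 4.64 in the others. None of the 9 prostanoid receptors reached the minimum in a library sum. Ptger2, a receptor of prostaglandin E2, was at 14.2, 8.47 and 8.10 CPM, with 28.4 in naive MHTO3, and Ptgir, the prostacyclin receptor, at 12.3, 6.52 and 1.94, with 21.4 in naive MHTO4. Cysltr1, a receptor of cysteinyl leukotrienes, was at 1.66, 0.767 and 1.13 CPM, the lipoxygenase Alox12 at 4.06, 0.537 and 0.177, and the epoxide hydrolase Ephx2 had at most 0.270.

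Of 6 known regulators of Ptgs2, 3 were lower in AT3-gcsf than in naive and 1 was lower in AT3-gcsf than in AT3; none was higher, and none was 2-fold apart in AT3 against naive. Of all genes tested, 21.3% and 3.41% were lower in the first 2 of these comparisons. Zfp36, which destabilises the Ptgs2 messenger RNA, was at 441, 302 and 134 CPM in naive, AT3 and AT3-gcsf, with ratios of -0.54, -1.68 and -1.15. Nfkb1, a subunit of NF-kappaB, was at 133, 69.2 and 53.1 CPM, with 256 in naive MHTO5, and Creb1, a cyclic AMP responsive factor, at 51.9, 27.5 and 19.7. With TMM none of the 3 was 2-fold lower, with Zfp36 at -0.81 and -0.86, Nfkb1 at -0.41 and Creb1 at -0.44 in the comparisons in which they had been. Less the median of all genes, Zfp36 was at -1.25 and -1.10 by totals and at -1.27 and -1.10 with TMM. On that scale Nfkb1 was at -0.81 and -0.87 and Creb1 at -0.77 and -0.90 in AT3-gcsf against naive.

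Hpgd, which degrades prostaglandins, and Slco2a1, which takes them up, were high in the same populations as Ptgs2. The ratios of Hpgd were -1.13 and -1.10 in AT3-gcsf against naive and against AT3, and -0.36 and -0.86 with TMM. Hpgd was at 155 CPM in naive MHTO5, 119.5 in AT3 MHTO8 and 48.9 in AT3-gcsf MHTO5, and at 0.251 to 7.93 elsewhere. Slco2a1 was at 40.9, 37.1 and 14 CPM in them and at most 0.974 elsewhere. Among thinned cells Hpgd was found in 0.428% of Ptgs2-positive cells of naive MHTO5 (0.157 to 0.929) and 4.44% of Ptgs2-negative ones (3.18 to 6.02), and in AT3 MHTO8 in 0.50% (0.216 to 0.983) and 2.91% (2.11 to 3.92). In AT3-gcsf MHTO5 the shares were 0.139% (0.00351 to 0.770) and 0.841% (0.545 to 1.24), whose intervals overlap. Cdh5, a defining endothelial marker, split the same way, with 0.0713% and 3.30% in naive MHTO5 and 0.250% and 2.29% in AT3 MHTO8. Over the 9 populations Pearson's r of Hpgd and Ptgs2 was 0.981, while in the cells of naive MHTO5 and AT3 MHTO8 Hpgd was found less often where Ptgs2 was found, with intervals apart.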

How the data were processed

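Raw UMI counts per gene and barcode were used as deposited by the authors, who made them with bcl2fastq 2.20.0.422 and Cell Ranger 4.0.0 on mm10, per the submitters' processing notes; for the deposited hashtag counts no program is given in the sources used here. The genes and lists were chosen with earlier results of these data known. Each hashtag file was joined by barcode to the library it labelled (94.1% to 97.4% dominant tags, at most 0.672% with another file). A barcode was kept when its top named tag held 80% of tag counts and at least 20 counts, with at least 200 genes and under 10% mitochondrial UMIs; this also removes doublets of 2 tags, and doublets within a tag were not called (leaving out the top 2% of cells by UMIs was an alternative). Counts were summed per population and library and scaled to CPM; genes at 20 CPM or more in the higher sum were compared after adding 5 CPM. All 8 genes are named, with those other pathway genes that were 2-fold apart or the highest 2 of their role, and the 5 genes most correlated with Ptgs2, Alox5ap and Lta4h, of which 1 is not reported here. Endothelial-like and macrophage-like classes were added after seeing the data. Thinning used seed 1. The ratio rule was tested on simulated data. Software was Python 3.11.15, numpy 2.4.6, scipy 1.17.1, pandas 2.3.3 and, for TMM alone, edgeR 4.0.16 in R 4.3.3.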

Additional observations from a re-analysis of the deposited data

How the results depend on the processing

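Of the 8 genes, the count 2-fold apart was 1 in AT3 against naive, 2 with TMM and 2 without the top 2% of cells by UMIs. In AT3-gcsf against naive it was 5, 3 with TMM, 2 in thinned cells and 3 without granule-rich cells. In AT3-gcsf against AT3 it was 2, 1 with TMM and 1 with equal weight of populations. Leaving out 1 population gave 1 to 2, 3 to 5 and 1 to 2. Over all genes, 347, 1105 and 194 were apart, and leaving out 1 population gave 378 to 832, 1089 to 1516 and 165 to 367; totals without the 20 most abundant genes gave 293 in AT3-gcsf against AT3. The pairs of a gene and a population with at least 10% of cells positive numbered 32, and 20 after thinning. Leaving out 1 population moved the log2 ratio of Ptgs2os2 in AT3 against naive from -3.55 (without AT3 MHTO8) to 0.31 (without naive MHTO5). In AT3-gcsf against naive it moved Ptgs2 from -5.44 (without AT3-gcsf MHTO5) to 1.17 (without naive MHTO5) and Lta4h from -1.94 (without naive MHTO5) to 0.07 (without naive MHTO4). In AT3-gcsf against AT3 it moved Ptgs2 from -5.35 to 2.10 and Ptgs2os2 from -2.18 to 0.81 (without AT3-gcsf MHTO5 and without AT3 MHTO8). By construction, leaving out a population removes its cells from 1 side only; other causes were not tested. Alox5 and Alox5ap had the same sign in all 19 alternatives of each comparison. No paired analysis was possible because each condition has a single library, and the tags carry no tissue that could match populations. The minimum of 20 CPM kept Ptges, Ltc4s and Ptgs1 out of the ratios. Depth limits Ptges most, with 42 to 80 UMIs per library.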
